A study of Mus musculus with 30 samples.

Results

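A set of 7 genes that lie near Timp2 on mouse chromosome 11 was examined in hippocampal RNA of TIMP2 KO and WT mice. They are Mettl23, Gm11733, 2900041M22Rik, Cant1, C1qtnf1, Hexdc and Rab40b, 7 of the 49315 genes in the count table. They were taken by symbol because an earlier comparison of the same mice gave each an adjusted p under 0.05 and placed each within 10 Mb of Timp2. Their differences between genotypes are therefore described and not tested. All 7 passed the filter on low counts, which left 16486 genes. Poly(A)-selected RNA from the dissected hippocampus was sequenced in 30 mice, 13 TIMP2 KO (6 males and 7 females) and 17 WT (10 males and 7 females). The KO animals carry a constitutive, not cell type-specific, Timp2 knockout, littermates served as controls, heterozygotes were not used, and all 30 mice have the strain label C57BL/6J. The study gives general age ranges for its animals, in months and covering young adults, but the sources used here do not tie one of them to the sequenced mice. Because each of the 7 genes lies on the chromosome that carries the targeted allele, the loss of Timp2 and the DNA on either side of that allele cannot be told apart in this design.

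The targeted gene itself was checked in every mouse. On the GRCm38 genome build, Timp2 (ENSMUSG00000017466) spans 118301069 to 118355740 of chromosome 11, minus strand. Its level in WT mice had a lowest value of 256 CPM (the reads of a gene per mega (M) reads counted on genes, with TMM scaling between libraries), a median of 333 and a highest value of 380. In KO mice the lowest, median and highest values were 130, 161 and 171 CPM, so the genotypes did not overlap. The KO libraries still held 2980 to 6682 reads on Timp2, and their mean level was 50.05% of WT. The counts cover the gene as a whole and do not show which exons were read, so they order the groups as labelled but do not show the loss of the transcript. At the protein level, the study reports by immunoblot that the TIMP2 band was absent from interstitial fluid of KO hippocampus. Depth was 18.3 to 41.1 M counts per KO mouse and 19.4 to 32.1 M per WT mouse. Summed markers of hippocampal neurons, at 6703 to 8531 CPM in KO and 6655 to 7790 CPM in WT mice, overlapped between genotypes. The same held for the lists of astrocytes, oligodendrocytes, microglia, endothelium, mural cells and fibroblasts, choroid plexus, blood, thalamus and striatum. In each of these 10 lists 0 of the genes tested passed the adjusted threshold, but only 2 of 7 choroid plexus and 4 of 5 blood markers were tested. At an unadjusted p under 0.05 by edgeR, 1 astrocyte and 1 choroid plexus marker were higher in KO mice. At the same threshold 1 neuronal and 1 endothelial marker were lower. Of all genes tested 2.47% were higher and 2.56% lower at that threshold. The choroid plexus sum reached 74.0 CPM in KO and 30.7 CPM in WT mice. The part of these differences in cell content was not tested. In bulk tissue, fewer cells of a type and less RNA per cell cannot be told apart.

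TIMP2 is a secreted protein that inhibits matrix metalloproteinases and also takes part in the activation of pro-MMP2 at the cell surface. The genes beside it on the chromosome do not form a pathway with it. Among them, C1qtnf1 encodes a secreted protein of the C1q and tumour necrosis factor-related family, and Cant1 encodes a calcium-activated nucleotidase of the endoplasmic reticulum and Golgi that is needed for normal proteoglycan synthesis. Hexdc encodes a hexosaminidase found in the cytosol and nucleus, and Mettl23 encodes a methyltransferase-like protein that modifies arginine in histones. Rab40b encodes a small GTPase of the Rab family with a SOCS box that binds a cullin ligase, and in cancer cells it takes part in the secretion of MMP2 and MMP9. 2900041M22Rik is annotated as a processed transcript without a coding sequence. Gm11733 is a predicted protein-coding gene for which no role is given here.

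The 7 genes lie on both sides of Timp2. At lower coordinates are Mettl23 (116843278 to 116854263, 1.45 Mb from Timp2), Gm11733 (117484368 to 117489014, 0.812 Mb) and 2900041M22Rik (117611247 to 117613857, 0.687 Mb), all on the plus strand. At higher coordinates are Cant1 on the minus strand (118406289 to 118419086, 50.5 kb from Timp2) and C1qtnf1 on the plus strand (118428203 to 118449963, 72.5 kb). Hexdc on the plus strand (121204433 to 121222655) and Rab40b on the minus strand (121356125 to 121388251) lie 2.85 and 3.00 Mb away. In KO mice 4 of them were lower (Mettl23, 2900041M22Rik, Cant1 and Hexdc) and 3 were higher (Gm11733, C1qtnf1 and Rab40b) than in WT mice, with lower and higher genes on each side of Timp2. The adjusted p (edgeR, quasi-likelihood, Benjamini-Hochberg adjustment over all genes tested) was under 0.05 for 0.0546% of all genes tested, 0.0243% higher and 0.0303% lower in KO mice. Just inside the threshold was Cant1 (adjusted p = 0.0476, log2 fold change -0.10), and the next gene within 10 Mb was Gm34418 (adjusted p = 0.578, log2 fold change -0.60), both from edgeR.

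**Figure D1:**
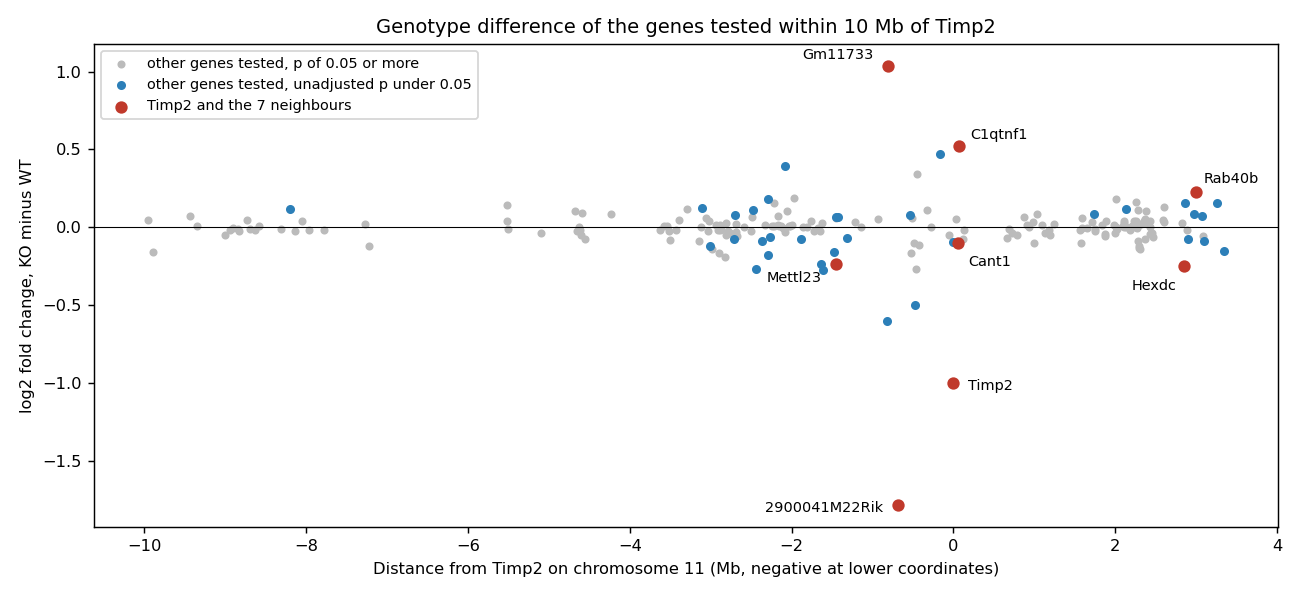
Log2 fold change, KO minus WT, of each gene tested within 10 Mb of Timp2 against its distance from Timp2 in Mb, with the 7 neighbours and Timp2 as red points and other genes with an unadjusted p under 0.05 in blue. The 7 neighbours lie within 3.00 Mb of Timp2, 4 below 0 and 3 above 0, from -1.78 (2900041M22Rik) to 1.04 (Gm11733). The tested genes at higher coordinates end at 3.35 Mb.

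RefSeq promoter windows, from 250 bases before to 50 bases after the RefSeq start on GRCm38.p6, were found for 4 of the 7 genes. For Hexdc 2 promoters were listed and 1 was used. The RefSeq start of Mettl23 lies 237 bases inside the gene span given above, so the counts for these genes depend on that choice of start. Of these, 3 are shown, for the gene with the largest difference (2900041M22Rik), a gene that was lower (Hexdc) and a gene that was higher in KO mice (Rab40b). Capitals mark the letters CCAAT or, on the other strand, ATTGG.
2900041M22Rik, chr11:117610997-117611296, plus strand: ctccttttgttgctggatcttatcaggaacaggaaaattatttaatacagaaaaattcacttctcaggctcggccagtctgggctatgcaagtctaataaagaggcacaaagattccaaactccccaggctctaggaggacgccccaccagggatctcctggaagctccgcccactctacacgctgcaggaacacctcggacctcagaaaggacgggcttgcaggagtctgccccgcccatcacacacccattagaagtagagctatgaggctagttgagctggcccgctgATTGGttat
Hexdc, chr11:121204183-121204482, plus strand: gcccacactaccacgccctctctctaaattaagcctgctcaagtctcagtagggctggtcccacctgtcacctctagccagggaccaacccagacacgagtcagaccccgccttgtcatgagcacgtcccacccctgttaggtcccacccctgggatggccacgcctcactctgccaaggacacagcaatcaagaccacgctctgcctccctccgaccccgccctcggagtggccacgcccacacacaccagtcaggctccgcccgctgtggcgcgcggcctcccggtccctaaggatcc
Rab40b, chr11:121388202-121388501, minus strand: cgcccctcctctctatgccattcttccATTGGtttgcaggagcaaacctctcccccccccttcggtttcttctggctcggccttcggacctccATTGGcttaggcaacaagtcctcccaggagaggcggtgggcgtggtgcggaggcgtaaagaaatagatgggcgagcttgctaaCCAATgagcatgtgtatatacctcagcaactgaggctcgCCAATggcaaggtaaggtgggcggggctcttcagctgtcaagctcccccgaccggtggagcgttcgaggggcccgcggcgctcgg
CCAAT was present 4 times in the Rab40b window, 3 times in that of Mettl23 (with a pair that overlaps), 1 time in that of 2900041M22Rik and 0 times in that of Hexdc, so in 3 of 4 windows, and in 37.4% of all 32851 windows of this length. GGGCGG, read on both strands, was present in all 4 windows and in 35.7% of all windows. TATAAA, read on both strands, was in 0 of the 4 and in 13.6% of all. GC content was 51.7% for 2900041M22Rik, 60.7% for Rab40b, 64.7% for Hexdc and 68.3% for Mettl23, against a median of 52.7% over all windows.

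2900041M22Rik (ENSMUSG00000054418), the noncoding transcript of 2 exons, had the largest difference of the 7. In WT mice the lowest level was 1.01 CPM, the median 1.81 and the highest 2.47. In KO mice these values were 0.209, 0.513 and 0.964 CPM. The highest KO mouse lay below the lowest WT mouse, so the genotypes did not overlap, which was true of 0.0121% of all genes tested, namely this gene and Timp2. The mean was 0.544 ± 0.188 CPM in KO (SD, n = 13) and 1.88 ± 0.377 CPM in WT mice (SD, n = 17), a log2 fold change of -1.78 (standard error 0.14) and a KO level of 29.1% of WT. The reads behind these values were few, 5 to 31 per KO library and 23 to 72 per WT library. The gap between the genotypes was narrow at its edge, where a WT male (mouse 6) had 23 counts and 1.01 CPM.

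Gm11733 (ENSMUSG00000069588), 122 kb from 2900041M22Rik on the same strand, differed in the other direction. In WT mice its lowest, median and highest levels were 0.103, 0.264 and 0.604 CPM. In KO mice they were 0.332, 0.682 and 1.05 CPM, and 9 of 13 KO mice lay above every WT mouse. The mean was 0.651 ± 0.184 CPM in KO (SD, n = 13) and 0.307 ± 0.147 CPM in WT mice (SD, n = 17), a log2 fold change of 1.04 (standard error 0.19). With 2 to 24 counts per library it was the least covered of the 7 genes, and its coefficient of variation among WT mice was 48.0%. The nearest gene tested on its other side, Gm34418, 1.77 kb away, differed by -0.60 on the log2 scale (standard error 0.16) and did not pass after adjustment. Adjacent low-level transcripts in this stretch thus differed in opposite directions.

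Cant1 (ENSMUSG00000025575) and C1qtnf1 (ENSMUSG00000017446), the nearest of the 7 to Timp2 and 9.12 kb from each other on opposite strands, also differed in opposite directions. C1qtnf1, the secreted C1q family member, had lowest, median and highest levels of 0.968, 1.59 and 2.33 CPM in WT mice. In KO mice these were 1.70, 2.35 and 3.05 CPM. The ranges overlapped, and 7 of 13 KO mice lay above every WT mouse. The mean was 2.36 ± 0.394 CPM in KO (SD, n = 13) and 1.63 ± 0.338 CPM in WT mice (SD, n = 17), a log2 fold change of 0.52 (standard error 0.10). On the opposite strand the antisense gene Gm11747 covers 20.5% of the C1qtnf1 exon bases, and it had at most 2 counts in a library.

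Cant1, the Golgi nucleotidase, had the smallest difference of the 7 and also the smallest spread. In WT mice its lowest, median and highest levels were 48.4, 51.1 and 54.5 CPM. In KO mice they were 45.4, 48.2 and 50.2 CPM, so the ranges overlapped between 48.4 and 50.2. The mean was 48.0 ± 1.51 CPM in KO (SD, n = 13) and 51.3 ± 1.73 CPM in WT mice (SD, n = 17), a log2 fold change of -0.10 (standard error 0.02) at a coefficient of variation of 3.15% in KO and 3.37% in WT mice. Of the 7 genes Cant1 was the least stable to how the data were handled. Its adjusted p from edgeR was over 0.05 in 25 of the 30 fits that left out 1 mouse and reached 0.131, and it was 0.0503 with RLE size factors.

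Hexdc (ENSMUSG00000039307), the hexosaminidase gene, had lowest, median and highest levels of 13.7, 15.1 and 16.1 CPM in WT mice. In KO mice these were 10.6, 12.7 and 15.0 CPM. A total of 11 of 13 KO mice lay below every WT mouse, and 1 KO female (mouse 5), at 15.0 CPM, lay near the WT median. The mean was 12.6 ± 1.21 CPM in KO (SD, n = 13) and 15.0 ± 0.726 CPM in WT mice (SD, n = 17), a log2 fold change of -0.25 (standard error 0.04). Hexdc shares 223 exon bases with Ogfod3 and 68 with Cybc1, both on the opposite strand, of 4723 in all. Neither was lower in KO mice, with log2 fold changes of 0.03 (standard error 0.06) for Ogfod3 and 0.16 (standard error 0.04) for Cybc1, and neither passed after adjustment.

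Mettl23 (ENSMUSG00000090266), the methyltransferase-like gene, had lowest, median and highest levels of 12.5, 15.6 and 16.7 CPM in WT mice. In KO mice these were 10.7, 13.2 and 15.0 CPM, and 6 of 13 KO mice lay below every WT mouse. The mean was 12.96 ± 1.30 CPM in KO (SD, n = 13) and 15.2 ± 1.06 CPM in WT mice (SD, n = 17), a log2 fold change of -0.23 (standard error 0.04). Mettl23 shares 460 of its 2697 exon bases with Srsf2, a splicing factor gene on the opposite strand, 172 with Jmjd6 on the opposite strand and 257 with Mfsd11 on its own strand. Srsf2, Mfsd11 and Jmjd6 had log2 fold changes of 0.07, 0.07 and 0.06 (standard errors 0.03, 0.03 and 0.04), none past the adjusted threshold. The 5 tested genes that overlap Mettl23 or Hexdc thus had values above 0, where Mettl23 and Hexdc had values below 0. The strand setting of the count is not given in the sources used here, so reads on shared bases cannot be assigned to a gene from these counts.

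Rab40b (ENSMUSG00000025170), the Rab GTPase gene, had lowest, median and highest levels of 49.7, 55.7 and 67.8 CPM in WT mice. In KO mice these were 60.5, 64.6 and 74.1 CPM. Of the KO mice 3 of 13 lay above every WT mouse, while 14 of 17 WT mice lay below every KO mouse. The WT mice within the KO range were 3 females, mouse 4 at 67.8, mouse 16 at 64.2 and mouse 21 at 61.2 CPM. The mean was 65.5 ± 4.18 CPM in KO (SD, n = 13) and 55.9 ± 5.00 CPM in WT mice (SD, n = 17), a log2 fold change of 0.23 (standard error 0.04). Its neighbour Wdr45b, 1.68 kb away, differed by 0.08 on the log2 scale (standard error 0.03) and did not pass after adjustment.

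**Figure D2:**
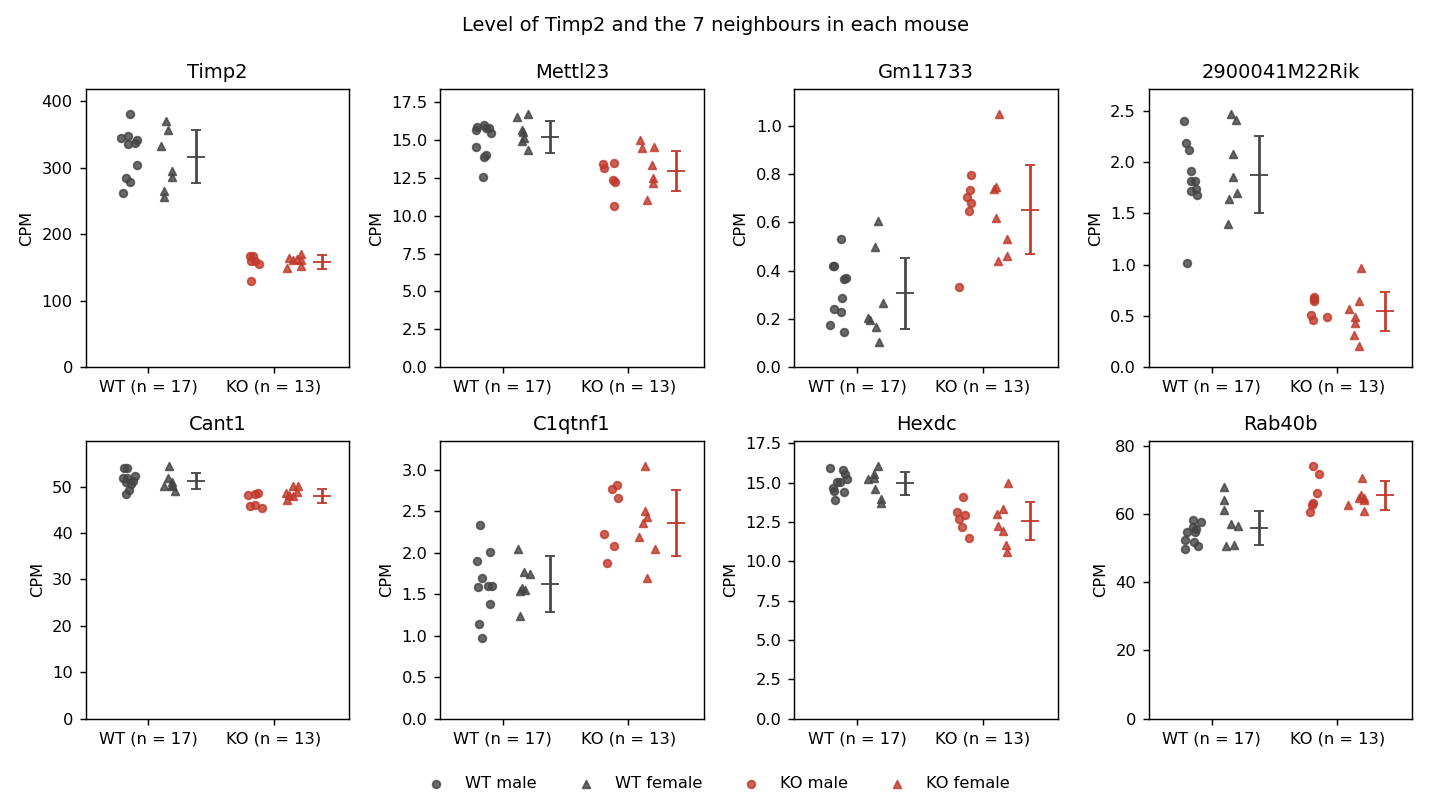
Level in CPM of Timp2 and the 7 neighbours in each mouse, with WT mice in grey, KO mice in red, males as circles, females as triangles and bars at the mean with 1 SD. Timp2 and 2900041M22Rik do not overlap between genotypes, and in the other 6 genes some mice of each genotype share a range.

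When each KO mouse was paired with each WT mouse, the KO mouse lay on the side of the mean difference in 91.4% (Mettl23) to 100% (2900041M22Rik) of pairs. Over all genes tested the median of this share was 57.5%, and 9 genes reached 91.4%. The 7 genes were chosen on this contrast in these mice, so their high shares follow from that choice. When each mouse was placed by whether it lay nearer the KO or the WT median of each gene, 8 of 13 KO mice lay on the KO side for all 7 genes, and 6 of 17 WT mice lay on the WT side for all 7. The medians came from the same mice, so the placing is a description. The least typical KO mouse was mouse 8, a female, with 4 of 7 genes on the KO side. No WT mouse had more than 2 genes on the KO side. 2900041M22Rik placed 13 of 13 KO and 17 of 17 WT mice on their own side, and Mettl23 placed 10 of 13 and 14 of 17. Among KO mice the genes on the WT side were Mettl23, Cant1 and C1qtnf1 in mouse 8, Mettl23 and Cant1 in mouse 27, Mettl23 and Hexdc in mouse 5, Gm11733 and C1qtnf1 in mouse 18, and Hexdc in mouse 1. Mettl23 and Cant1 were also the genes on the KO side in the WT males 22 and 31.

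**Figure D3:**
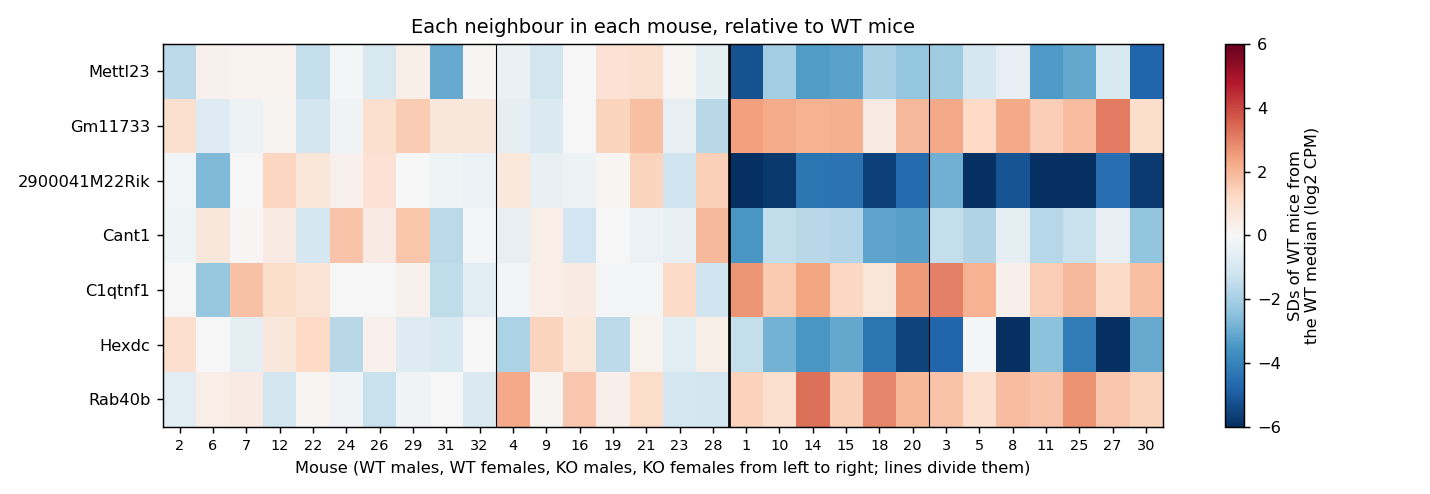
Level of each of the 7 genes (rows) in each of the 30 mice (columns) as the number of WT SDs from the WT median on the log2 CPM scale, with colours that end at 6 SDs. The 13 KO mice to the right of the thick line are blue for 2900041M22Rik in every column, while Mettl23, Gm11733, Cant1, C1qtnf1 and Hexdc are near white in single KO mice.

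Levels were compared between genes only per length, as CPM per kb of annotated exon. In WT mice the order from high to low was Rab40b (27.8 ± 2.49 CPM per kb), Cant1 (11.8 ± 0.397), Mettl23 (5.64 ± 0.392), Hexdc (3.17 ± 0.154), 2900041M22Rik (1.05 ± 0.211), C1qtnf1 (0.519 ± 0.108) and Gm11733 (0.133 ± 0.0637), each with its SD over 17 mice. Every pair of neighbours in this order differed by more than the SD of either gene. In KO mice C1qtnf1 (0.754 ± 0.126 CPM per kb) came before 2900041M22Rik (0.305 ± 0.106) and Gm11733 (0.282 ± 0.0795), and the last pair did not differ beyond their SDs over 13 mice. The order among the 4 higher genes was the same in both genotypes. Timp2 stood at 81.2 ± 10.2 CPM per kb in WT mice and 40.6 ± 2.69 in KO mice, above all 7.

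Sex had no part in the choice of the genes and was tested. With genotype in the model, 0 of the 7 genes differed between females and males at an adjusted p under 0.05 by edgeR's quasi-likelihood test, where 0.218% of all genes did, and 0 of 7 had an unadjusted p under 0.05, where 9.77% did. The differences, females minus males, ran from -0.03 (Gm11733, standard error 0.20) to 0.07 (Mettl23, standard error 0.04) on the log2 scale. The lowest p was that of Mettl23 (p = 0.132, adjusted p = 0.671). DESeq2 also found 0 at either threshold, with an adjusted p for 5 of the 7. In WT mice alone 1 of the 7, Rab40b, had an unadjusted p under 0.05, with a difference of 0.11 (standard error 0.05, edgeR p = 0.0497, adjusted p = 0.881), and in KO mice alone 0 did. After adjustment 15 of 16486 genes passed in WT mice alone and 13 in KO mice alone. The share of all genes at the unadjusted threshold is not given for these fits, so the value of Rab40b has no background there. Within each sex the genotype difference had the same direction for all 7 genes. The lowest p for a difference between the sexes was that of Rab40b, with a log2 fold change, KO minus WT, of 0.15 in females (standard error 0.06) and 0.29 in males (standard error 0.04). WT females had 58.3 ± 6.50 CPM of Rab40b (SD, n = 7) and WT males 54.2 ± 2.92 CPM (SD, n = 10), while KO females had 64.7 ± 2.98 (SD, n = 7) and KO males 66.4 ± 5.43 (SD, n = 6). The difference between the sexes, -0.14 (standard error 0.07), did not pass edgeR's interaction test (p = 0.0653, adjusted p = 0.9996). The interaction gave 0 of 7 genes at an adjusted p under 0.05, as for 0.0% of all genes tested, and 0 of 7 at an unadjusted p under 0.05, where 2.57% of all genes did. DESeq2 gave the same counts of 0 for the 7 genes, and edgeR without a filter on low counts gave 1 at an unadjusted p under 0.05 (Rab40b, p = 0.0488). In that fit 0 of 33550 genes passed after adjustment, and the share at the unadjusted threshold is not given.

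Within a genotype the level of Timp2 varied between mice, and whether a neighbour followed it was tested in 14 relations, 7 in KO and 7 in WT mice, each with a 2-sided permutation test of 100000 resamples. In KO mice 0 of 7 genes correlated with Timp2 at a Pearson p under 0.05, where by limma 19.4% of all genes had an unadjusted and 4.99% an adjusted p under 0.05. Pearson's r there ran from -0.456 (Rab40b, permutation p = 0.120; Spearman rho -0.473, permutation p = 0.106) to 0.349 (Hexdc, permutation p = 0.244; rho 0.533, permutation p = 0.0643). 2900041M22Rik had an r of -0.259 (permutation p = 0.3595) and a rho of -0.593 (permutation p = 0.0354) in KO mice. Without the 2 KO mice farthest from the median Timp2 level, r of Gm11733 turned from 0.277 to -0.321, that of C1qtnf1 from 0.320 to -0.242 and that of Cant1 from 0.114 to -0.244, and none of these passed. The sign of these 3 relations thus rested on those mice.

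In WT mice 1 of 7 genes, Rab40b, correlated with Timp2 at a permutation p under 0.05, where 9.35% of all genes had an unadjusted p under 0.05 by limma. Rab40b was higher where Timp2 was lower, with an r of -0.649 (permutation p = 0.00436) and a rho of -0.556 (permutation p = 0.0221) over 17 mice. It did not pass after adjustment over all genes tested (limma, adjusted p = 0.104, where 0.874% of all genes passed). Without the 2 mice farthest from the median Timp2 level, r was -0.609 (permutation p = 0.0147), and with the mean of each sex removed it was -0.642 (permutation p = 0.00556). Timp2 levels of WT mice left a gap of 0.13 on the log2 scale between 8 mice at 8.00 to 8.25 and 9 mice at 8.38 to 8.57. Within these sets, which are small and span less Timp2, the r of Rab40b was -0.506 in the lower set (exact permutation p = 0.201, n = 8) and -0.041 in the higher set (exact permutation p = 0.914, n = 9). Mean Rab40b was 5.88 ± 0.13 log2 CPM (SD, n = 8) in the set with less Timp2 and 5.73 ± 0.08 (SD, n = 9) in the other. The sets held 4 females of 8 and 3 females of 9. Cant1 had an r of 0.484 with Timp2 (permutation p = 0.0508, rho 0.390, permutation p = 0.124) in WT mice. It had an r of 0.301 within the lower set (exact permutation p = 0.460, n = 8) and -0.736 within the higher set (exact permutation p = 0.0250, n = 9). Of these 4 values of r within sets, those of the lower set had the sign of the pooled r and did not pass, and the sign of Cant1 in the higher set was the opposite. In the higher set rho was 0.25 for Rab40b (exact permutation p = 0.521), also opposite to the pooled sign, and -0.833 for Cant1 (exact permutation p = 0.00827). The division was placed at a gap seen in these same Timp2 values and applied to all 7 genes without adjustment. The p-values within sets are therefore a description and decide nothing on these relations. Among the other genes only C1qtnf1 had a p under 0.05, in the higher set (rho 0.70, exact permutation p = 0.0433), where its r did not (0.532, exact permutation p = 0.138).

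**Figure D4:**
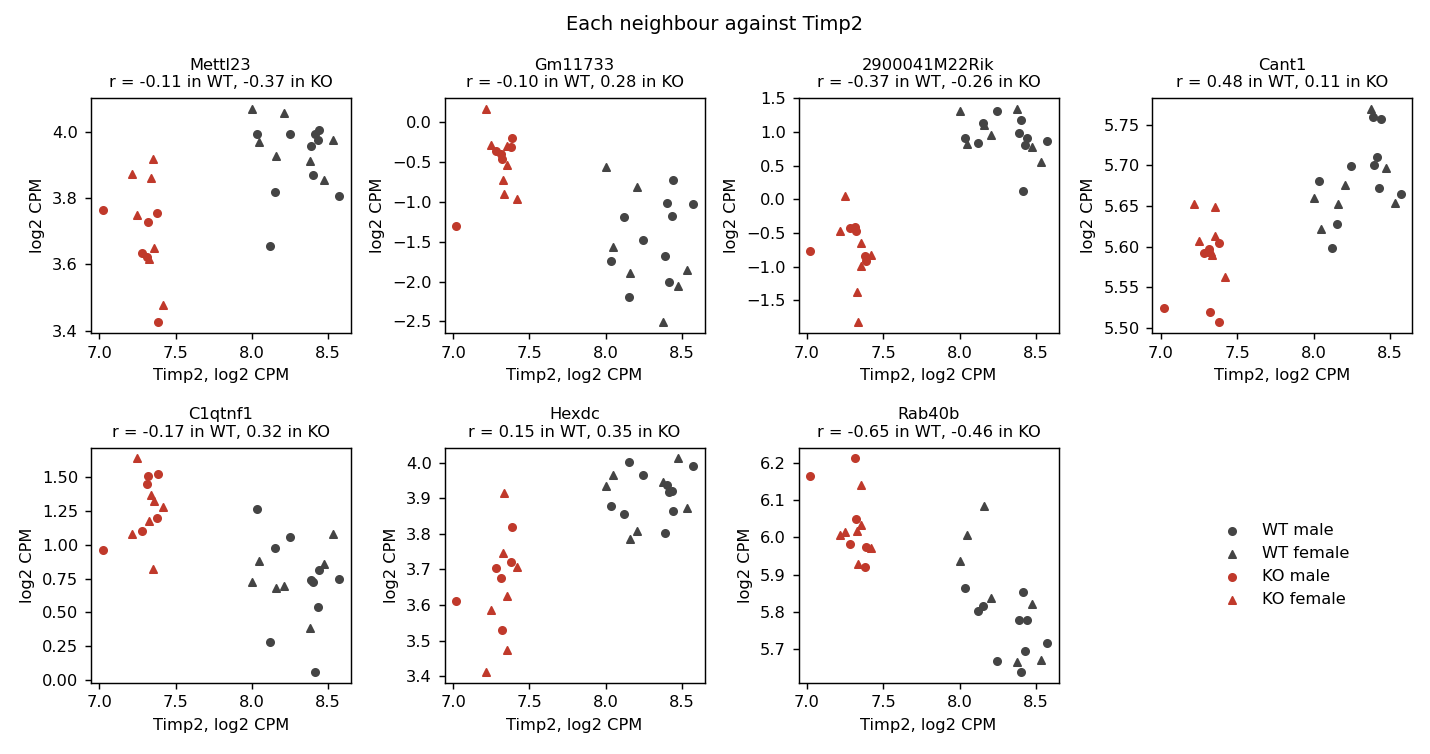
Log2 CPM of each neighbour against log2 CPM of Timp2 in 17 WT mice (grey) and 13 KO mice (red), males as circles and females as triangles, with Pearson's r within each genotype. Rab40b is lower where Timp2 is higher among WT mice (r = -0.65), whose Timp2 levels leave a gap near the middle of their range.

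Within a genotype, no pair of the 7 genes was correlated from mouse to mouse after adjustment. Over the 21 pairs, the median r of log2 CPM was 0.001 in WT mice, with a range from -0.394 to 0.372, and -0.027 in KO mice, with a range from -0.665 to 0.565. Of these 42 relations 0 had an adjusted p under 0.05 by the permutation test, with Benjamini-Hochberg adjustment over the 42, and 2 had an unadjusted p under 0.05, both in KO mice. They were 2900041M22Rik with Hexdc (r = -0.665, permutation p = 0.0134, adjusted p = 0.563; rho -0.659, permutation p = 0.0174) and Mettl23 with Cant1 (r = 0.565, permutation p = 0.0439, adjusted p = 0.750; rho 0.511, permutation p = 0.0779). Without the 2 mice farthest from the median of the gene named first, r was -0.501 (permutation p = 0.116) and 0.329 (permutation p = 0.325). Neither relation passed without those mice. Left out in the same way, pairs that had not passed with all mice reached an r of 0.619 (Mettl23 with Gm11733 in WT mice, permutation p = 0.0143) and 0.630 (Gm11733 with 2900041M22Rik in KO mice, permutation p = 0.0369), from 0.204 (permutation p = 0.439) and 0.476 (permutation p = 0.0992).

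**Figure D5:**
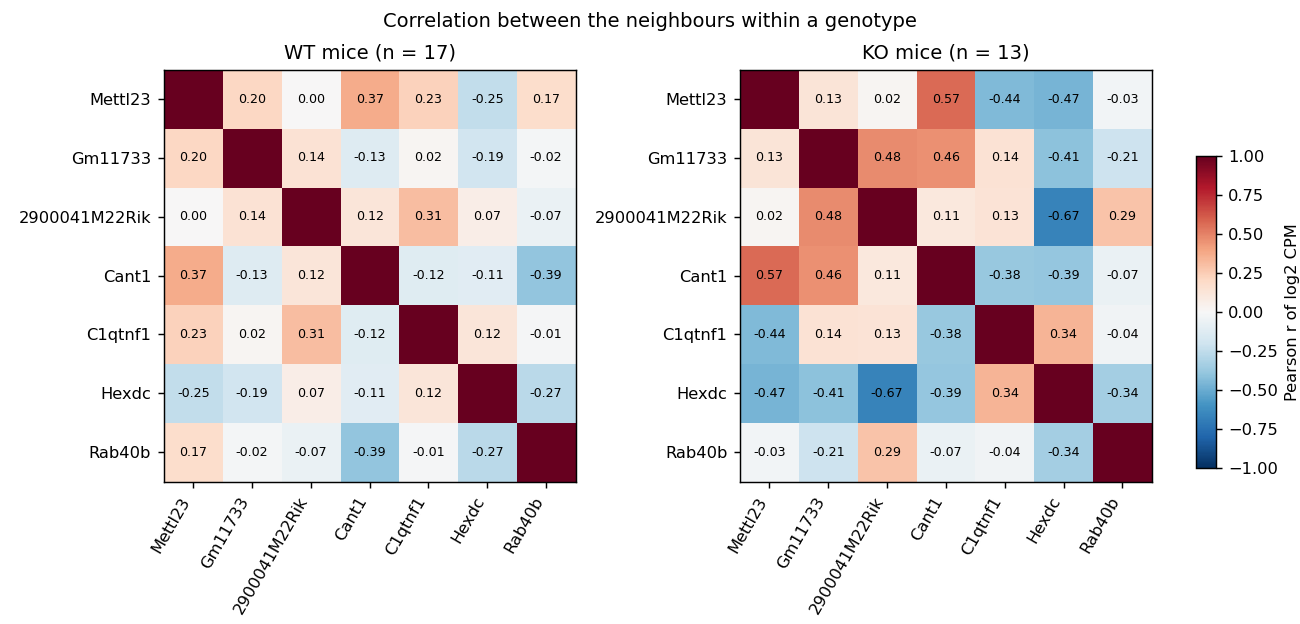
Pearson's r of log2 CPM between each pair of the 7 genes in 17 WT mice (left) and 13 KO mice (right), from blue at -1 to red at 1. Values run from -0.39 to 0.37 in WT mice and from -0.67 to 0.57 in KO mice.

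For each of the 7 genes the genes most like it were sought among all other genes tested, by Pearson's r over 30 mice after the mean of each genotype was subtracted. The values are the highest of 16485 and carry no test. They were AI839979 (r = 0.815) and Mpc1-ps (0.684) for C1qtnf1, Gm28529 (0.731) and Gm29361 (0.679) for Hexdc, and Tmod1 (0.726) and Rtf2 (0.677) for Rab40b. For 2900041M22Rik they were 1700048O20Rik (0.704) and Dgcr2 (0.616), and for Gm11733 they were Gm15559 (0.649) and Parva (0.639). For Cant1 they were Hk2 (0.631) and Commd7 (0.618), and for Mettl23 they were Rnf166 (0.622) and Rnf113a1 (0.620). None of these 14 genes lies on chromosome 11, and their own log2 fold changes, KO minus WT, ran from -0.30 (AI839979, standard error 0.24) to 0.12 (Mpc1-ps, standard error 0.09). The residual levels had correlations with log2 total counts between -0.103 (Cant1) and 0.363 (C1qtnf1).

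Other genes of the same stretch of chromosome 11 were counted in the fit across all genes. Of 202 other genes tested within 10 Mb of Timp2, 0 passed after adjustment by edgeR and 33 had an unadjusted p under 0.05 (16 higher and 17 lower in KO mice), which is 16.3% against 5.03% of all genes tested (2.47% higher and 2.56% lower). Their median absolute log2 fold change was 0.039, against 0.031 over all genes. Within 3.2 Mb, a bound set after the positions of the 7 genes were seen, 30 of 159 had an unadjusted p under 0.05, and from 3.2 to 10 Mb 3 of 43 did. At higher coordinates the last gene tested, Metrnl, lies 3.35 Mb from Timp2, so the farther genes are mostly at lower coordinates. Metrnl (edgeR p = 0.0160) and B3gntl1, at 3.26 Mb on that side (edgeR p = 0.0188), were among those 3. The other was Abca8a, 8.21 Mb away at lower coordinates (edgeR p = 0.00853). A fall with distance on both sides cannot be read from these counts. The 10 nearest tested genes beside the 7 that do not overlap them included 6 with an unadjusted p under 0.05 from edgeR. With overlapping genes left out, the nearest to Hexdc at lower coordinates was Csnk1d, 213 kb away. Of these Gm34418 (-0.60), Mxra7 (-0.16, standard error 0.05) and Mgat5b (-0.07, standard error 0.03) were lower, and Wdr45b (0.08), Tnrc6c (0.08, standard error 0.04) and Fn3krp (0.07, standard error 0.03) were higher on the log2 scale. The other 4 of the 10 were Lgals3bp, Engase, Csnk1d and Narf, with log2 fold changes of 0.06, -0.08, 0.03 and -0.02. Directions were thus mixed among the genes that lie next to the 7.

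Lists of relatives were made for C1qtnf1, Cant1, Hexdc, Rab40b and Mettl23, not for 2900041M22Rik or Gm11733. In these 5 lists 0 genes passed after adjustment by edgeR, and 6 had an unadjusted p under 0.05. By list that was 0% to 14.3% of the genes tested, against 5.03% of all genes tested. Lists of 14 to 23 genes are too small to tell such shares apart, and no test was run. The lists include Engase, Gaa and Nt5c, which themselves lie within 10 Mb of Timp2. Of the 16 C1q and tumour necrosis factor-related genes tested, 2 had an unadjusted p under 0.05, C1ql3, which encodes a secreted synaptic protein (log2 fold change -0.11, standard error 0.04), and C1qtnf4 (-0.09, standard error 0.03), both lower in KO mice where C1qtnf1 was higher. Of 17 extracellular and luminal nucleotidases, relatives of Cant1 in function, 1 did, Enpp2 (0.43, standard error 0.13), at 159 ± 83.2 CPM in KO (SD, n = 13) and 118 ± 11.0 CPM in WT mice (SD, n = 17). Enpp2 is also strongly expressed in choroid plexus, the list that reached 74.0 CPM in KO mice, and the part of that list in its value was not tested. Of 23 glycosidases of lysosome and cytosol, 0 did, with Hexa at 0.05 (standard error 0.03). Of 14 genes in the list of Rab40 and its partners, which also holds metalloproteinases, 2 did, Rap2a (-0.06, standard error 0.02) and Sh3pxd2a (-0.07, standard error 0.03). Mmp2 and Mmp9, the gelatinases whose secretion in cancer cells involves Rab40b, had log2 fold changes of -0.05 (standard error 0.08) and 0.04 (standard error 0.11), and the related gene Rab40c had -0.0012 (standard error 0.03). Mmp2 was at a low level, 2.37 CPM in KO and 2.46 CPM in WT mice. By qPCR and immunoblot the study reports more Mmp2 RNA and MMP2 protein in KO hippocampus, and no significant change of Mmp9 RNA. The reason for the unlike Mmp2 results was not tested. Of 16 methyltransferases tested, 1 did, Prmt5 (0.08, standard error 0.02). Median log2 fold changes of the 5 lists ran from -0.0027 to 0.025, against 0.00011 over all genes tested.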

How the data were processed

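Hippocampal poly(A) RNA of 30 mice was sequenced, 1 library a mouse, and the deposited table holds raw counts per Ensembl gene. Per the labels, the authors used Trimmomatic 0.36, STAR 2.5.2b with GRCm38 and featureCounts of Subread 1.5.2, and they did not normalize the counts. The study tested genotype in DESeq2 with a Wald test. All 30 columns were matched to a mouse by title, with 0 left over, and no pair was identical.

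Symbols, positions and exon lengths came from GENCODE M21, which lacks 259 of the 49315 identifiers. Genes were filtered by filterByExpr, scaled by TMM and tested by quasi-likelihood in edgeR 4.0.16 (R 4.3.3), without covariates, with Benjamini-Hochberg adjustment over all genes tested. Log2 CPM used a prior count of 2. Standard errors are the log2 fold change divided by the root of F. The relation to Timp2 was also fitted in limma 3.58.1 over all genes. Permutation tests were 2-sided (Python 3.11.15, numpy 2.4.6), with 100000 resamples, and exact for fewer than 10 mice. The edgeR fit was tested on simulated data.

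The members, gene lists and tests were chosen with earlier results of these data known. Named genes are the 7, their nearest and overlapping tested genes, the gene just past the threshold, the 2 most alike genes of each, and relatives with an unadjusted p under 0.05. Genes named beyond this rule (Mmp2, Mmp9, Hexa, Rab40c, Metrnl, B3gntl1 and Abca8a) were chosen after their values were seen. Alternatives were RLE factors, DESeq2 1.42.0, other filters, covariates (sex, 8 surrogate variables from sva 3.50.0, total counts), each sex alone, voom, other prior counts and each mouse left out. The division of WT mice by Timp2 level was added after the data were seen. Depth was 18.3 to 41.1 M counts a mouse. The common coefficient of biological variation was 7.52%, and for Gm11733 and 2900041M22Rik, with 2 to 24 and 5 to 72 counts a mouse, counting error adds to it. Nothing in the labels says whether mice shared a litter or harvest day. Harvest dates, treated as a batch in the co-expression analysis of the study, are not in the labels used here and were not fitted.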

Additional observations from a re-analysis of the deposited data

Results flagged for a closer look

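Dixon's test within each sex and genotype picked out 3 values, each far from the others of its group. In all, 32 groups were examined, Timp2 included, and chance flags about 1 in 20 of them, or 1.6. Mouse 18, a KO male, had the lowest Gm11733 (log2 CPM -1.31, 11 counts), against -0.47 to -0.20 in the other KO males. The same mouse had the lowest Timp2 (log2 CPM 7.02, 130 CPM), against 7.28 to 7.38. Mouse 6, a WT male, had the lowest 2900041M22Rik (log2 CPM 0.12, 23 counts), against 0.81 to 1.31 in the other WT males. The cause of these values was not tested.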

How the results depend on the processing

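The 7 genes were chosen on this contrast in these mice, so their counts in refits of it are a description. The count with an adjusted p under 0.05 was 7 with DESeq2 (of 11 genes in all) and 6 with RLE factors (of 8), without a filter (of 9), with sex (of 7), with total counts (of 7), with voom (of 7) and with surrogate variables (of 8). With at least 10 counts in every mouse it was 5 of the 5 genes left (of 6 in all). It was 1 with females alone (2900041M22Rik, of 2 in all) and 2 with males alone (of 3), from fewer mice, and 6 to 7 when each mouse was left out in turn. The gene lost was Cant1 in all of these fits with 6, other than that with surrogate variables, where it was C1qtnf1. Log2 fold changes over the 10 alternatives stayed within -0.13 to -0.07 for Cant1, 0.49 to 0.54 for C1qtnf1 and 0.15 to 0.29 for Rab40b. With males alone 2 of the 7 did not overlap between genotypes (2900041M22Rik and Rab40b), of 4 genes in all, and with females alone 1 of the 7 (2900041M22Rik), of 8 in all. Without the 2 mice farthest from the median Timp2 level, 2 genes correlated with Timp2 in WT mice (Rab40b and Cant1, r = 0.521).

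The differences that changed sign did not pass in either fit. For females minus males these were Gm11733 (0.0068) and Rab40b (-0.037) in KO mice alone, and 2900041M22Rik (0.059), Cant1 (-0.013) and C1qtnf1 (0.0068) in WT mice alone. The interaction of C1qtnf1 became 0.010 with total counts. Without the 2 farthest mice, r with Timp2 became -0.321 for Gm11733, -0.244 for Cant1 and -0.242 for C1qtnf1 in KO mice, and 0.126 for Mettl23, 0.059 for Gm11733 and 0.0041 for C1qtnf1 in WT mice. With sex removed that of Cant1 in KO mice became -0.0046. The causes were not tested. No paired analysis was possible because mice of the 2 genotypes carry no shared number.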
